A study of Homo sapiens with 3 samples.

Results

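The clustered protocadherin locus is a 730 kb stretch of the long arm of human chromosome 5 (chr5:140165000-140895000, hg19), in which the alpha, beta and gamma protocadherin genes (PCDHA, PCDHB and PCDHG) lie one after the other on the plus strand. Its members here are the plus-strand sites of CSTF2tau binding listed wholly inside that interval, under any gene ID. After lines with the same coordinates were collapsed within a replicate, 177 of 194766 listed peaks were members, with 86 in replicate 1, 19 in replicate 2 and 72 in replicate 3. A peak is a short stretch of the genome in which the authors' caller found crosslinked reads to be concentrated. Inside the interval, members were taken by position alone and no read value was used. The members were, however, chosen with earlier results of these data known.

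The study measured RNA bound by CSTF2tau with sCLIP, a method in which living cells are irradiated with ultraviolet light to fix proteins to the RNA they touch, the RNA is trimmed, and the fragments pulled down with an antibody are sequenced. It has 1 group of 3 biological replicates, all of unmodified (wild-type) cells of the established human neuroblastoma line BE(2)-C, with 1 antibody against CSTF2tau. No treatment, genotype or time was compared, and neither input RNA nor a control antibody was used here. More RNA from a place and more CSTF2tau on that RNA cannot be told apart. Everything below describes 1 cell line and compares places within a library or the 3 libraries with each other.

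CSTF2tau is a close relative of CSTF2. Both bind RNA as part of the cleavage stimulation factor, a complex that helps to cut a new transcript at its 3' end before the poly(A) tail is added. Clustered protocadherins are adhesion proteins on the surface of neurons, and each neuron makes its own small selection of them, by which its branches tell themselves from those of other cells. In the alpha and gamma clusters each gene has its own promoter and its own large first exon, which encodes the outside of the protein and its membrane anchor. That first exon is spliced to a few constant exons at the far 3' end of the cluster, which encode a tail inside the cell that all proteins of the cluster share. A transcript started at an upstream gene of a cluster therefore runs across the genes that follow it. Beta genes stand alone and have no such shared exons.

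The RefSeq gene table (GRCh38.p14) has the same layout: 15 protein-coding alpha genes with 15 starts and 1 common end, 16 beta genes with 16 separate ends, and 22 gamma genes with 22 starts and 1 common end. Neither that table nor the peak lists pair Ensembl gene IDs with symbols, so 0 gene IDs were matched to a symbol and genes are given by ID. Marker genes of the cell line and other genes of the pathway were for the same reason not analysed here. No hg19 sequence was used here, so no peak sequence is shown and no peak is placed in an exon, an intron or an untranslated region.

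The libraries differ in size. The lists hold 362113, 49851 and 134352 plus-strand nuclear reads in replicates 1, 2 and 3 after collapsing. A read here is the last number of a peak's name, which no source defines. It fell as the authors' p-value rose, with a Spearman correlation across all peaks of -0.988, -0.973 and -0.964. These totals cover listed peaks only and are not the sequencing depth. Replicate 3 leaned to the minus strand over the whole genome (63.5% of its nuclear reads, against 49.1% and 50.7% in replicates 1 and 2), which lowers its plus-strand total. The share of the whole locus is therefore given against both strands too; other shares of plus-strand reads are not.

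Peaks in the locus were shallow. Replicate 1 had a median of 5 reads per peak and a highest value of 18, replicate 2 a median of 4 and a highest of 11, and replicate 3 a median of 4 and a highest of 17. Those medians equal the medians of all other plus-strand nuclear peaks, which were 5, 4 and 4. Peaks of 10 reads or more made up 12.8%, 15.8% and 6.94% of the locus and 18.7%, 12.1% and 4.91% of the other plus-strand peaks. The widths were also ordinary, with medians of 82, 68 and 68 nt against 79, 72 and 69 nt elsewhere.

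The peaks formed 3 sections separated by long stretches without any plus-strand peak in any replicate. The alpha section ran over chr5:140179914-140391918 and the gamma section over chr5:140732099-140892512; each was a chain of gene IDs joined by peaks listed under several of them. Between them lay 6 gene IDs over chr5:140515077-140603460 that shared no peak with another ID, here called the beta section. The sections are named by their order along the strand, which is that of the 3 clusters in the RefSeq table. The stretch without peaks measured 123 kb between alpha and beta and 129 kb between beta and gamma.

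**Figure D1:**
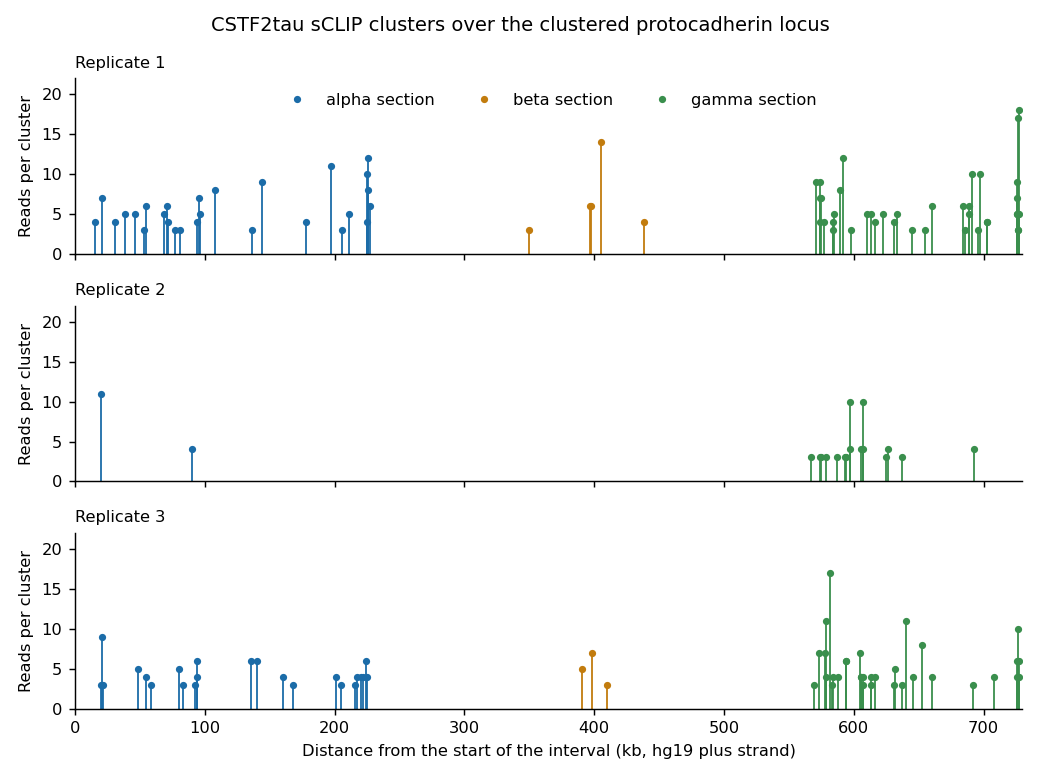
Reads per cluster of overlapping peaks (vertical axis) against the distance from the start of the interval in kb (horizontal axis), 1 panel per replicate, coloured by section. Clusters lie in 3 groups in replicates 1 and 3, and in the alpha and gamma groups only in replicate 2, whose tallest cluster has 11 reads.

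The interval held 525 reads in replicate 1, 86 in replicate 2 and 365 in replicate 3. As a share of plus-strand nuclear reads, replicate 1 had 0.145% (exact 95% interval 0.133 to 0.158%). Replicate 2 had 0.173% (0.138 to 0.213%), and replicate 3 had 0.272% (0.245 to 0.301%). The mean was 0.196% ± 0.0666 (SD, n = 3). Replicate 3 lay above both others. Against nuclear reads of both strands the shares were closer, at 0.0738%, 0.0850% and 0.0993%. These intervals treat every read as a separate count, but peaks listed again with shifted edges enter some reads more than once. With such peaks of the locus merged, as described below, the plus-strand shares were 0.119%, 0.164% and 0.219%. Those of replicates 1 and 3 lie below their intervals, so the intervals do not set the replicates apart. Several reads may also come from 1 molecule. The p-values and spreads are those between these 3 libraries.

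Reads were denser in the locus than along the rest of chr5. On the plus strand the locus had 0.719, 0.118 and 0.50 reads per kb in replicates 1, 2 and 3, against 0.127, 0.0138 and 0.0444 in the remaining 179736 kb between the first and last listed peaks of the chromosome. The ratio was 5.65-fold, 8.54-fold and 11.3-fold, a mean log2 ratio of 3.03 ± 0.50 (SD, n = 3). It was above 0 in 3 of 3 replicates (exact two-sided sign-flip permutation test, p = 0.25, the smallest that 3 replicates allow). With overlapping peaks merged in the locus but not in the rest, as described below, the ratio was 4.62-fold, 8.15-fold and 9.07-fold. The rest of the chromosome includes long stretches without genes, which neither form of the ratio sets aside.

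The flanks of equal length were lower than the locus in each replicate. The 730 kb before the locus held 368, 29 and 170 reads, which was 0.102%, 0.0582% and 0.127% of plus-strand reads. The 730 kb after it held 153, 5 and 44 reads, or 0.0423%, 0.0100% and 0.0327%. With its overlapping peaks merged, the locus held 430, 82 and 294 reads, still above both flanks, whose peaks were not merged. In replicate 1 the merged share was 0.119% against 0.102% before the locus.

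Gamma took most of the signal of the locus and beta very little. The gamma section had 328 of 525 reads in replicate 1 (62.5%, exact 95% interval 58.2 to 66.6%), 71 of 86 in replicate 2 (82.6%, 72.9 to 89.9%) and 217 of 365 in replicate 3 (59.5%, 54.2 to 64.5%). The alpha section had 164, 15 and 133 reads, or 31.2%, 17.4% and 36.4%. The means were 68.2% ± 12.6 for gamma and 28.4% ± 9.82 for alpha (SD, n = 3). Peaks listed again with shifted edges count some of these reads more than once, which the intervals do not allow for. With such peaks merged, gamma had 56.5%, 81.7% and 61.2% in replicates 1, 2 and 3. The 56.5% of replicate 1 lies below its interval.

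The order of the sections was the same in every replicate. The log2 ratio of gamma to alpha reads, with 0.5 reads added to each, was 1.00, 2.21 and 0.70, a mean of 1.30 ± 0.80 (SD, n = 3; exact two-sided sign-flip permutation test, p = 0.25, the smallest possible). Replicate 2 had the most uneven split, and without it the mean was 0.85. The gamma section spans 160 kb and the alpha section 212 kb, so the gap is wider per length: 20.4, 4.43 and 13.5 reads per 10 kb in gamma against 7.74, 0.708 and 6.27 in alpha. All these values use collapsed reads, in which second listings count some reads again. With overlapping peaks merged, gamma had 243, 67 and 180 reads and alpha had 154, 15 and 99. The mean log2 ratio was then 1.21 ± 0.79 (SD, n = 3).

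**Figure D2:**
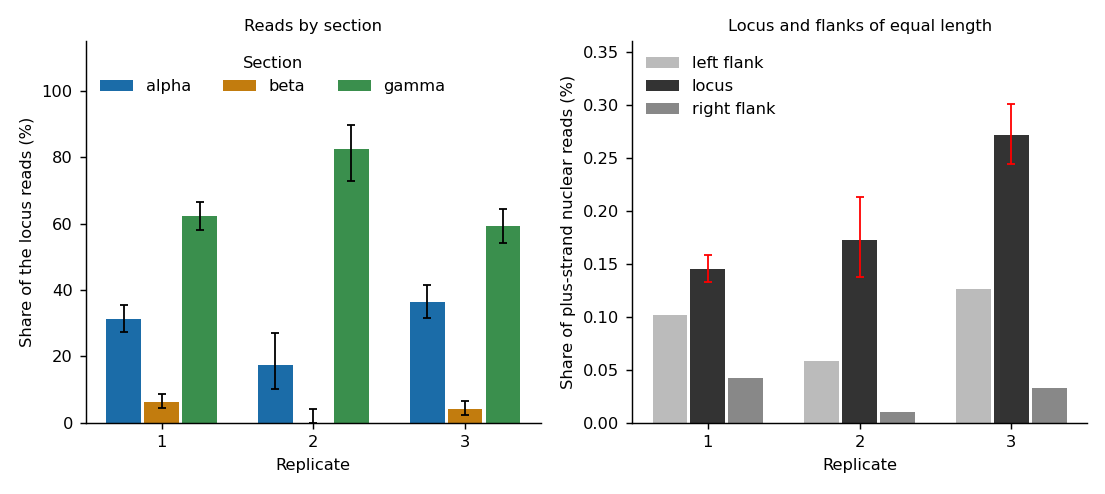
Intervals in both panels use collapsed reads, some of which were counted more than once. Left, the share of the locus reads in each section by replicate, with exact 95% intervals. The gamma bar is the tallest in all 3 replicates, at 62.5%, 82.6% and 59.5%. Right, the share of plus-strand nuclear reads in the locus (exact 95% interval in red) and in the flanks of equal length on each side; the locus bar stands above both flanks in each replicate.

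The beta section had 33 reads in 5 peaks in replicate 1, 0 in replicate 2 and 15 reads in 3 peaks in replicate 3. That is 6.29% of the locus reads in replicate 1 and 4.11% in replicate 3. In replicate 2, 0 of 86 reads allows a share of up to 3.49% by a limit of 3 counts and 4.20% by the exact 95% interval. The 4.11% of replicate 3 lies above the first limit and below the second, so a difference between these replicates is not shown. Every listed peak has at least 3 reads, so reads at thinner places go unlisted. Neither limit therefore bounds the share that replicate 2 had before peaks were listed. Each of the 8 peaks was listed under 1 gene ID only. ENSG00000196963 was the only one of the 6 beta IDs listed in more than 1 replicate. It had 12 reads in replicate 1, in peaks of 6 reads each at chr5:140561411-140561478 and chr5:140562205-140562294, and 7 reads in replicate 3 at chr5:140563310-140563406. Those positions do not overlap, so the gene region was listed again but at other places. With counts this low, a lack of binding at an unlisted place is not shown.

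The tallest beta peak belonged to ENSG00000177839, with 14 reads at chr5:140570141-140570245 in replicate 1 and none in replicates 2 and 3. ENSG00000120327 had 4 reads and ENSG00000113209 had 3 reads, both in replicate 1 alone. ENSG00000113212 had 5 reads and ENSG00000120324 had 3 reads, both in replicate 3 alone. No beta ID was listed in all 3 replicates, against 11 of 16 alpha IDs and 19 of 21 gamma IDs.

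Those ID counts need not reflect binding at each gene, because the lists repeat a peak under many IDs. A single peak was listed under a mean of 9.66, 9.26 and 8.82 gene IDs in replicates 1, 2 and 3, and under at most 21, 19 and 20. Other plus-strand peaks had a mean of 1.03 in each replicate and at most 3, 4 and 4. Of the locus peaks, 84.9%, 94.7% and 77.8% carried several IDs, against 2.39%, 2.78% and 3.13% elsewhere.

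The repetition was large enough to stand out in the whole lists. The locus had 831, 176 and 635 lines for its 86, 19 and 72 distinct peaks, so 745, 157 and 563 lines repeated the coordinates of another. These were 35.8%, 37.0% and 36.2% of all repeated lines on the nuclear plus strand, from 0.165%, 0.223% and 0.248% of its distinct peaks. When every line was counted, the locus took a mean of 1.64% of plus-strand reads in place of 0.196%. A read total per gene ID therefore counts the same reads many times in this locus.

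Apart from second listings and a few other peaks, the number of IDs per peak rose along the alpha and gamma sections, the arrangement that nested genes with 1 common end give. In beta it stayed at 1. In the alpha section of replicate 1 it went from 2 IDs at chr5:140179914-140179988 through 7 at chr5:140218372-140218431 and 12 at chr5:140258602-140258677 to 15 at chr5:140362470-140362575. Of the 16 alpha IDs, 15 reached the last 3 kb of the section, the same number as the alpha genes in the RefSeq table. The remaining one, ENSG00000249504, had 1 peak of 3 reads and 9 nt in replicate 1, after which the number fell from 11 to 10. In the gamma section the number rose from 4 in replicate 2 at chr5:140732099-140732131 to 21 in replicate 1 at chr5:140890514-140890630. All 21 gamma IDs reached the last 3 kb, and RefSeq lists 22 gamma genes. Late in gamma, ENSG00000242419 alone was listed at chr5:140867892-140867956 in replicate 1 and at chr5:140872742-140872814 in replicate 3.

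**Figure D3:**
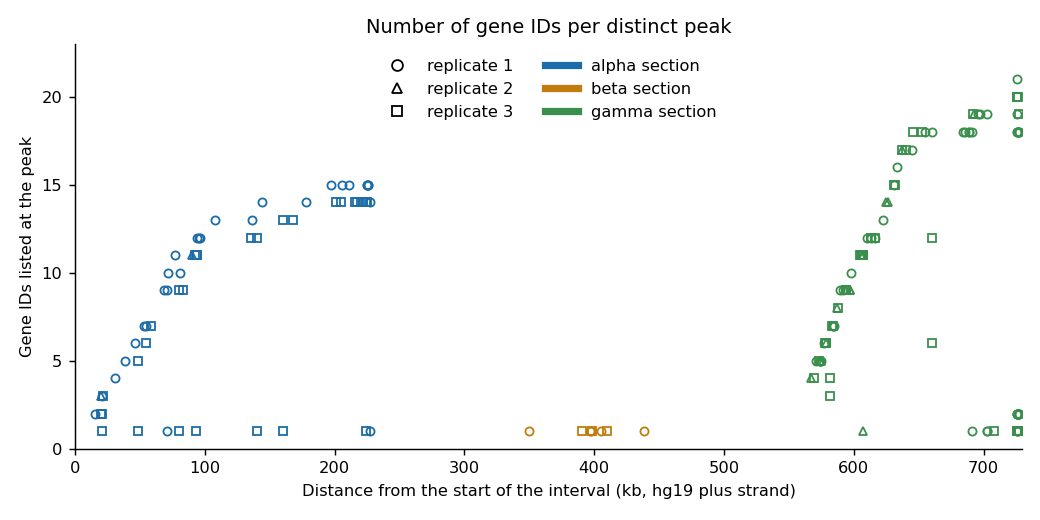
Gene IDs listed at each distinct peak (vertical axis) against the distance from the start of the interval in kb (horizontal axis), with 1 symbol per replicate and colours for the sections. The number climbs to 15 across alpha and to 21 across gamma and stays at 1 in beta; other points at 1 to 6 IDs inside alpha and gamma are mostly second listings of a peak under other IDs with slightly different edges.

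Reads under an upstream ID are thus sums over the section. ENSG00000204970, one of the pair with the earliest alpha peak, had 153 reads in 27 peaks in replicate 1, while ENSG00000243232, the alpha ID with the latest first peak, had 59 reads in 8 peaks, all of them downstream. In gamma, ENSG00000081853 had 224 reads in 37 peaks in replicate 1 and ENSG00000240764 had 77 reads in 10 peaks. These values do not show that one promoter was used more than another.

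Some peaks were listed more than once with shifted edges, which collapsing identical coordinates does not remove. Overlapping peaks of a replicate were therefore also merged into clusters, each with the reads of the ID that had most. This left 72 clusters with 430 reads, 18 with 82 and 59 with 294, and several sets of coordinates stood in 11, 1 and 13 of them. The merged values gave the locus 0.119%, 0.164% and 0.219% of plus-strand reads, and gamma 56.5%, 81.7% and 61.2% of the locus. Values for parts of a section below are the merged ones unless stated.

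In replicates 1 and 3, reads were denser per kb at the 3' end of both sections than upstream. The shared constant exons lie at that end in the textbook layout. The last 3 kb of the gamma section (chr5:140889513-140892512) is 1.87% of its span. It held 77 of 243 merged reads in replicate 1 (31.7%) and 30 of 180 in replicate 3 (16.7%). The last 3 kb of the alpha section (chr5:140388919-140391918) is 1.42% of its span. It held 40 of 154 reads in replicate 1 (26.0%) and 10 of 99 in replicate 3 (10.1%), the latter in 2 clusters. Per kb, the reads there exceeded those upstream in the same section 24.3-fold and 10.5-fold in gamma, and 24.4-fold and 7.83-fold in alpha. Each window ends at the last listed base and was set after the peaks had been seen, so it must hold a peak in at least 1 replicate, and these ratios are descriptions with no test.

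Replicate 2 had no peak in either window. It had 0 of 67 merged reads there in gamma and 0 of 15 in alpha. By the collapsed reads, 0 of 71 allows a share of up to 4.23% in gamma by a limit of 3 counts and 5.06% by the exact interval. On the same basis replicate 1 had 46.0% (exact 95% interval 40.5 to 51.6%) and replicate 3 had 21.7% (16.4 to 27.7%). Both limits also lie below the merged shares of 31.7% and 16.7%. In alpha, 0 of 15 allows up to 20% by a limit of 3 counts and 21.8% by the exact interval. This includes the 12.0% of replicate 3 (7.04 to 18.8%), while the 27.4% of replicate 1 (20.8 to 34.9%) lies above it with an interval that overlaps it. The collapsed shares of replicate 1 in gamma are higher than the merged ones because 151 collapsed reads became 77 when second listings were merged. The merged 31.7% lies below the exact interval of replicate 1, which therefore does not measure counting error. Every listed peak has at least 3 reads, so reads at thinner places go unlisted, and replicate 2 had the smallest total. None of these limits therefore bounds the share that replicate 2 had before peaks were listed. Since the windows were also set after the peaks had been seen, these limits are no test of replicate 2 against the others.

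The 3' end of gamma was covered over 2.00 kb in replicate 1, by 10 clusters from chr5:140890514 to chr5:140892512. Its tallest peak, 18 reads under 2 IDs, lay at chr5:140892376-140892512, ending on the last listed base of the section. The next, 17 reads under 2 IDs, lay at chr5:140891701-140891882. The same peaks were listed under 18 other IDs with 17 and 15 reads. These were also the highest values of replicate 1 in the whole locus. Replicate 3 had 5 clusters over 1.69 kb, with 10 reads at chr5:140891721-140891902 and 6 at chr5:140892346-140892441. The tallest cluster of replicate 3 there thus overlapped the 17-read peak of replicate 1, and their deposited core stretches of at most 4 nt lay 8 nt apart.

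At the alpha end, replicate 1 had 5 clusters. The tallest were 12 reads at chr5:140390842-140391009 and 10 reads at chr5:140389915-140390048. Replicate 3 had 2, with 6 reads at chr5:140389391-140389435 and 4 reads at chr5:140389992-140390057, of which the second overlapped the 10-read peak. Clusters of 10 reads or more were 4 of 15 in the 2 windows together in replicate 1 and 4 of 52 upstream of them; in replicate 3 they were 1 of 7 and 3 of 49.

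**Figure D4:**
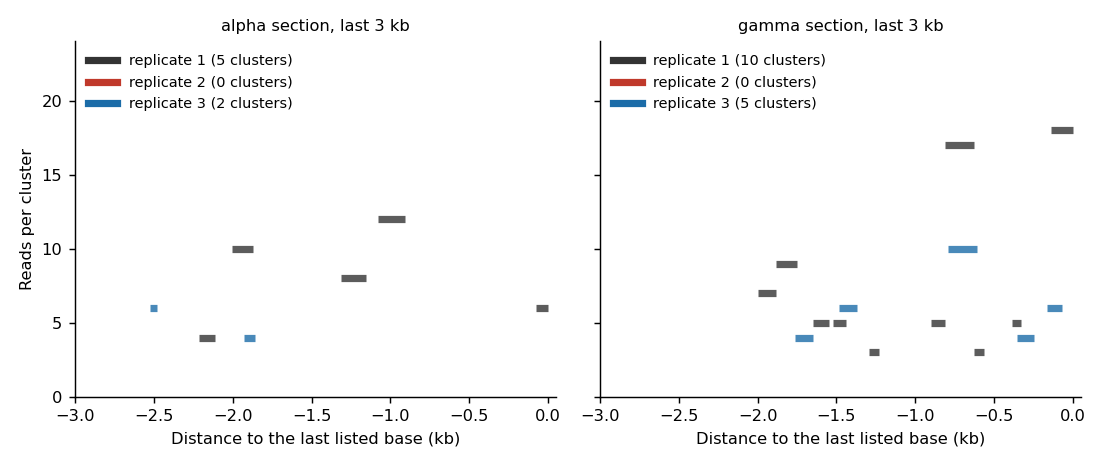
Clusters in the last 3 kb of the alpha (left) and gamma (right) sections: each bar spans a cluster, with the distance to the last listed base in kb on the horizontal axis and its reads on the vertical axis. Replicate 1 has 5 and 10 clusters, replicate 3 has 2 and 5, and replicate 2 has none in either window.

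The start of the gamma section, where gene IDs are added one after another, also held many reads. When the gamma section was split into 4 equal parts of 40.1 kb, the first held 30.9%, 73.1% and 52.2% of its merged reads in replicates 1, 2 and 3. The next to last of these parts held 7.41%, 0% and 6.67%, and was the lowest in each replicate. The last held 49.0%, 5.97% and 20.6%, most of it in the 3 kb window in replicates 1 and 3. By these parts replicate 1 was highest at the far end of the gamma section, and replicates 2 and 3 at its start.

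The tallest gamma peaks of replicates 2 and 3 lay in the first or second part. In replicate 3 a peak of 17 reads lay at chr5:140746751-140746860, listed under 4 IDs, and again 1 nt shorter under 3 others. It had no overlapping peak in replicates 1 and 2. Replicate 3 also had 11 reads at chr5:140743611-140743703 and 11 at chr5:140804862-140804957. Replicate 2 had 10 reads at chr5:140761933-140762003 and 10 at chr5:140771905-140772014. None of these 5 peaks overlapped a peak of another replicate. That was the usual outcome: merged over the replicates, 125 of the 136 places with peaks in the interval were found in 1 replicate only. Among other plus-strand nuclear places, 8.28% were found in 2 or more replicates.

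In alpha the reads were spread along the section. Split into 4 equal parts of 53.0 kb, replicate 1 had 22.1%, 29.2%, 7.79% and 40.9% of its merged alpha reads from first to last, and replicate 3 had 27.3%, 21.2%, 19.2% and 32.3%. Replicate 2 had 2 alpha peaks: 11 reads at chr5:140185213-140185282, its tallest in the locus, and 4 reads at chr5:140254680-140254731. The last part was the highest in replicates 1 and 3, and empty in replicate 2.

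Single sites seldom came back between replicates. Merged over the 3 replicates, the peaks made 136 loci, of which 11 were found in 2 replicates and 0 in all 3. The share in 2 or more was 8.09%, and 8.28% of the other plus-strand nuclear loci were found in 2 or more and 0.859% in all 3. The locus was thus near the background in this setting. When peaks had to overlap by at least 50% of both, 4 loci were left (2.94%, against 5.15% of the others). Without replicate 1 there were 2 (2.67% against 3.81%), without replicate 2 there were 8 (6.61% against 6.13%), and without replicate 3 there was 1 (1.12% against 3.52%). Per replicate, 15.3% of its clusters overlapped another replicate in replicate 1 (11 of 72), 16.7% in replicate 2 (3 of 18) and 16.9% in replicate 3 (10 of 59), against 13.4%, 33.9% and 18.8% of the other plus-strand clusters. The mean difference was -5.72 percentage points ± 10.2 (SD, n = 3; exact two-sided sign-flip permutation test, p = 0.75), with signs that differed between replicates, and it was 0.505 points without replicate 2. It was -15.2 points with only peaks whose p did not exceed the median of their list and -17.9 points with peaks of at least 5 reads, below 0 in 3 of 3 replicates in both (exact two-sided sign-flip permutation test, p = 0.25, the smallest possible). Replicate 2 had only 5 and 3 clusters left in the locus under these filters, and 0 of them overlapped another replicate. With an overlap of at least 50% of both peaks the difference was -6.40 points, also below 0 in 3 of 3 replicates.

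On the scale of 10 kb the replicates shared more places. Of 73 windows in the interval, 37 had a peak in any replicate, 25 of these had peaks in 2 or more (67.6%) and 7 in all 3 (18.9%). Among other 10 kb plus-strand windows with any peak, 43.8% had peaks in 2 or more replicates and 10.7% in all 3. Of the 7 windows, 5 lay in the gamma section and 2 in the alpha section. The longest run was of 3 adjacent windows, chr5:140735001-140765000, at the start of gamma, which had 40, 20 and 15 merged reads in replicate 1, 9, 3 and 20 in replicate 2, and 29, 28 and 12 in replicate 3. Windows with more peaks are shared more easily, and the windows were not matched on their number of peaks.

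The 11 loci found in 2 replicates were 9 of the 78 gamma loci and 2 of the 50 alpha loci. In the last 3 kb, 5 of 8 gamma loci and 1 of 6 alpha loci were found in 2 replicates. Of the other plus-strand nuclear loci, 8.28% were found in 2 or more replicates. The 3 kb windows were set after the peaks had been seen, and the loci were not matched on width or number of peaks. Replicates 1 and 3 shared 8 of the 11, and replicate 2 took part in 3. The locus with the highest mean share was in alpha, at chr5:140185213-140185286, with 11 reads in replicate 2 and 3 in replicate 3 but none in replicate 1. It held 0.0221% and 0.00223% of plus-strand reads, a mean of 0.00810% ± 0.0121 (SD, n = 3). Without replicate 2, the 3 reads of replicate 3 alone remain. The core stretches lay 6 nt apart, the closest among the 11.

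The gamma loci shared by replicates 1 and 3 were led by 2 at the 3' end. The locus at chr5:140891701-140891948 had 20 reads in replicate 1 and 10 in replicate 3, or 0.00552% and 0.00744% of plus-strand reads. The locus at chr5:140892346-140892512 had 18 and 6 reads, with core stretches 49 nt apart. The other 3 there had 14 and 4 reads (chr5:140890631-140890963), 5 and 6 reads (chr5:140890988-140891140) and 5 and 4 reads (chr5:140892126-140892266). At the alpha end, chr5:140389915-140390057 had 10 and 4 reads. Relative to plus-strand totals, the higher of replicates 1 and 3 exceeded the lower by at most 3.23-fold at these 6 loci.

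The remaining 4 shared loci lay further upstream in gamma and were shallow. At chr5:140738651-140738744, replicate 1 had 7 reads and replicate 2 had 3. At chr5:140758727-140758825, replicate 2 had 3 reads and replicate 3 had 6. Replicates 1 and 3 had 4 and 4 reads at chr5:140781050-140781158, and 5 and 3 reads at chr5:140778600-140778706. Such counts are at or near the 3 reads that every listed peak has at least, so a missing replicate at these places is not shown to be a lack of binding.

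The minus strand of the same interval was nearly empty. It had 15 reads in 3 peaks in replicate 1, 6 reads in 2 peaks in replicate 2 and 10 reads in 2 peaks in replicate 3. These were 2.78%, 6.52% and 2.67% of the reads of both strands in the interval, against 49.1%, 50.7% and 63.5% of all nuclear reads. None of the 7 minus-strand peaks overlapped a plus-strand member. In replicates 1 and 3 most of these reads lay close to the far end of the interval, with 8 reads at chr5:140894801-140894916 in replicate 1 and 7 at chr5:140894830-140894937 in replicate 3. The minus-strand lean that replicate 3 had over the genome was not seen inside the locus.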

How the data were processed

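RNA crosslinked to CSTF2tau in 3 replicates of BE(2)-C cells was analysed from 1 peak list per replicate. The genome build is hg19, and FastQC, SAMtools, STAR and bedtools were used, per the submitters' processing notes; what called the peaks, with which settings and annotation, is not given in the sources used here. Each deposited p-value comes from the authors' caller and served only to filter peaks and to read their names. In the deposited names, a gene ID is followed by 2 whole numbers, of which the last is at least 3 and was taken as the reads. Gene ID versions, which have 1 digit in replicate 1 and up to 2 in the others, were dropped.

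Lines with identical coordinates were collapsed. Overlap meant at least 1 nt on the same strand. Sections are gene IDs joined by shared peaks. Shares carry exact Clopper-Pearson intervals at the 95% level, computed on collapsed reads. Values over replicates were tested by exact sign-flip. Scripts used Python 3.11.15, pandas 2.3.3 and SciPy 1.17.1 and were tested on simulated data. The rule named loci found in 2 or more replicates (at most 15), the 3 highest peaks per replicate and the 10 gene IDs with the highest share in peaks of 1 ID. The members and lists were chosen with earlier results of these data known.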

Additional observations from a re-analysis of the deposited data

How the results depend on the processing

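Of 37 alternative values of the 5 main results, 29 kept their direction or stayed within 1 SD (counts: within 1.5 times), 7 moved and 1 changed sign. The share of plus-strand reads was 1.64% with every line counted and 0.0860% against reads of both strands, and 0.159 to 0.222% when leaving out each replicate. Loci in 2 or more replicates fell from 11 to 4 when peaks had to overlap by at least 50% of both, to 4 with only peaks whose p did not exceed the list's median (5.97%, against 8.56% of other loci) and to 3 with peaks of at least 5 reads (4.55% against 7.96%), and numbered 1 to 8 when leaving out each replicate. The difference in shared clusters ran from -11.3 to 0.505 percentage points when leaving out each replicate, and was -15.2 and -17.9 under those filters on p and reads. The log2 density ratio and the log2 gamma-to-alpha ratio stayed above 0 under every alternative run, but 3 replicates cannot give a p below 0.25. Merging overlapping peaks was added after the data had been seen. No paired analysis was possible because the study has 1 group. Peaks of 3 to 5 reads make most single sites too shallow to call absent elsewhere.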

Other observations

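Second listings of a peak gathered on a few gene IDs. ENSG00000255408, an alpha ID, had 26 peaks in replicate 1, none of them listed under it alone, and 7 peaks with 34 reads in replicate 3, all 7 listed under it alone. ENSG00000204967, the alpha ID whose first peak comes next along the strand, had 25 peaks in replicate 1. ENSG00000242419, a late gamma ID, had 6 peaks with 34 reads in replicate 3, all listed under it alone. It had 12 peaks in replicate 1, of which 2 with 8 reads were its own. Not all of these were second listings. Those at chr5:140872742-140872814 and chr5:140892161-140892266 in replicate 3 and chr5:140867892-140867956 in replicate 1 overlapped no other listing of their replicate. ENSG00000253873 had 3 peaks listed under it alone, with 16 reads, in replicate 1. There, ENSG00000240184 had 1 with 10 reads and ENSG00000243232 had 1 with 6 reads. ENSG00000253767 had 1 with 4 reads in replicate 2.

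In 28 pairs of such listings, the edges differed by at most 45, 1 and 36 nt in replicates 1, 2 and 3. The listing under fewer IDs had more reads in 6 of 14 pairs of replicate 1, the same in 6 and fewer in 2. In replicate 3 it had more in 4 of 13, the same in 4 and fewer in 5. The largest difference was 8 reads. At the 3' end of gamma in replicate 3, ENSG00000242419 had more reads than the shared listing in all 4 pairs, with 10 against 7, 6 against 3, 6 against 4 and 4 against 3.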
